A study of Mus musculus with 23 samples.

Results

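Cancer-associated fibroblasts (CAFs) sorted from EO771 tumors were compared directly with CAFs sorted from LL2 tumors. The comparison used 4 libraries, 2 of EO771 CAFs and 2 of LL2 CAFs, of the 8 CAF libraries and the 23 libraries of the study analyzed here. On log2(RPKM + 1) values these were the CAF groups whose means lay nearest to each other, at a Euclidean distance of 91.5. The other 5 pairs of groups among EO771, LL2, MC38 and Pan02 CAFs ran from 100.4 to 122. These distances covered symbols with at least 1 RPKM in at least 2 of the 4 EO771 and LL2 libraries. Genes expressed only in MC38 or Pan02 CAFs were therefore left out of them. The study characterized the stroma and the immune infiltrate of syngeneic mouse tumor models, and sequenced RNA from whole tumors and from sorted CAFs. EO771 here is the EO771.LMB line, a mouse breast carcinoma, and LL2 is a Lewis lung carcinoma line. Cells of either line, 500000 per injection, were placed under the skin of the flank of adult female C57BL/6 mice of the C57BL/6JBomTac stock, and no treatment was given. At endpoint the tumors were digested, cells binding CD45 were taken out, and live FAP+ cells were collected by flow cytometry, so the groups are defined by FAP protein on the surface and not by a lineage reporter. Each library came from its own round of sorting, and the labels do not tie a library to one animal, so p-values below measure the spread between these libraries. The whole tumors of the same models, 3 of EO771 and 3 of LL2, were fragments of unsorted tissue and were used to look up the direction of a difference in libraries that the CAF contrast did not use.

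CAFs are a main source of fibrillar collagens and of the enzymes that cross-link and cut the tumor matrix, and they can take on contractile, inflammatory or antigen-presenting programs. Matrix metalloproteinases (MMPs) are secreted or membrane-bound zinc proteases that cleave matrix proteins and are held in check by TIMP inhibitors, and several are made as inactive forms that plasmin can activate. Plasmin itself is set free from plasminogen by activators such as urokinase. *Mmp10* encodes stromelysin-2 and *Mmp12* encodes macrophage elastase.

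The values are RPKM, reads per kilobase of transcript scaled to the number of reads in the library. A gene was tested when it reached at least 1 RPKM in at least 2 of the 4 libraries, which 12521 symbols did. A difference is always EO771 minus LL2 on the log2(RPKM + 1) scale, followed by the standard error from limma, and it understates the change of genes with low values. A gene is called when its Benjamini-Hochberg adjusted p is under 0.05 and the difference is at least 1 log2 unit. Whole reads could be recovered from the RPKM values and gave library totals from 20035700 to 22841800 reads, so depth was alike in the 4 libraries. The median absolute difference between replicates was 0.104 in EO771 and 0.144 in LL2 CAFs, against 0.425 between the group means. With 2 libraries against 2, an exact permutation test of a single gene cannot go below p = 0.333, so every p given here comes from the fit that shares its estimate of spread across genes.

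Both groups carried fibroblast transcripts at high levels. *Col1a1*, a chain of type I collagen, measured 3773 and 3362 RPKM in EO771 CAFs and 2260.0 and 1595 RPKM in LL2 CAFs, and *Fap*, the gene of the sorting marker, measured 6.46 and 7.16 RPKM in EO771 CAFs and 9.24 and 9.91 RPKM in LL2 CAFs. The 12 fibroblast identity genes summed to 10456 and 9630.1 RPKM in EO771 CAFs and to 8559 and 7276 RPKM in LL2 CAFs. As shares of the transcriptome (TPM over all symbols), these sums stood at 6.53 times the level of whole EO771 tumors and 4.61 times that of whole LL2 tumors. The sums were mostly *Col1a1*, *Col1a2* and *Col3a1*. Single members ran from 0.17 (*Twist2*) to 3.63 (*Dcn*) log2 units relative to tumors in EO771 CAFs. In LL2 CAFs they ran from -0.41 (*Twist2*) to 3.04 (*Col1a2*), and *Prrx1* stood at 0.82 in EO771 and 0.10 in LL2 CAFs. Of the 12 genes, 2 were called higher in EO771 CAFs (*Col1a2*, difference 1.22 ± 0.17, adjusted p = 8.05e-05, and *Fbln2*, 1.67 ± 0.15, adjusted p = 2.96e-06) and 1 was called higher in LL2 CAFs, *Lum*, which encodes the collagen-binding proteoglycan lumican (257 and 281 RPKM in LL2 CAFs and 72.4 and 73.8 RPKM in EO771 CAFs; -1.87 ± 0.11, adjusted p = 1.31e-07). *Dcn*, the gene of decorin, fell just short of 1 log2 unit at -0.99 ± 0.13 (adjusted p = 5.08e-05). The remaining differences were 0.91 for *Col1a1*, 0.70 for *Thy1*, 0.55 for *Pdgfrb*, 0.40 for *Twist2*, -0.37 for *Pdgfra*, -0.39 for *Col3a1*, -0.39 for *Prrx1* and -0.44 for *Fap*. With a spread estimated from all 8 CAF libraries, neither *Col1a2* nor *Fbln2* was called.

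Transcripts of other cell types were present and differed between the groups. Of 18 leukocyte markers, 12 were tested and 11 were called higher in EO771 CAFs, and their summed level was 129 and 156 RPKM in the EO771 libraries and 15.2 and 15.6 RPKM in the LL2 libraries. *Ptprc*, the gene of CD45, was low in all 4 libraries, with 0.947 and 0.902 RPKM in EO771 CAFs and 0.0170 and 0.0210 RPKM in LL2 CAFs, and *Cd3e* of T cells was at most 0.248 RPKM. *Lyz2*, the lysozyme of myeloid cells, measured 40.2 and 49.03 RPKM in EO771 CAFs and 0.673 and 2.42 RPKM in LL2 CAFs (4.25 ± 0.25, adjusted p = 1.11e-07). *Tyrobp*, an adaptor of myeloid receptors, measured 11.4 and 18.2 RPKM against 0.237 and 0.0780 RPKM, *Fcer1g* 16.01 and 17.8 RPKM against 0.848 and 0.370 RPKM and *Laptm5* 7.67 and 8.84 RPKM against 0.0830 and 0.119 RPKM. Every EO771 library stood above both LL2 libraries for these 4 genes. The leukocyte sum was 0.128 times the level of whole tumors in EO771 CAFs and 0.0094 times in LL2 CAFs. *Cd14* was the tested marker that was not called, at 0.76 ± 0.13 (adjusted p = 3.97e-04).

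Epithelial markers split. Of 13 such genes 8 were tested, of which 2 were called higher in EO771 CAFs and 5 higher in LL2 CAFs. *Krt8*, which encodes a keratin of simple epithelia, measured 492 and 495 RPKM in EO771 CAFs and 84.2 and 90.5 RPKM in LL2 CAFs (2.49 ± 0.11, adjusted p = 1.62e-08), whereas *Krt18*, its usual partner, measured 0.729 and 1.4 RPKM in EO771 CAFs and 97.2 and 101 RPKM in LL2 CAFs (-5.62 ± 0.15, adjusted p = 1.87e-10). *Krt14* was higher in EO771 CAFs at 4.54 and 4.13 RPKM against 0.556 and 0.217 RPKM, and *Krt19*, *Cldn4*, *Epcam* and *Cldn3* were higher in LL2 CAFs, with *Krt19* at 15.9 and 15.5 RPKM in LL2 CAFs and 0.768 and 3.18 RPKM in EO771 CAFs. *Cldn4* was not called without LL2 replicate 1, with no filter or with the spread of all 8 CAF libraries. *Krt7* was not called (-0.999 ± 0.14, adjusted p = 1.18e-04). Of 11 endothelial markers, all tested, limma called 0, with an unadjusted p under 0.05 for 3, each higher in EO771 CAFs, and edgeR on the reads recovered from RPKM called 1. *Plvap* was the most abundant of them at 32.04 and 30.9 RPKM in EO771 CAFs and 19.04 and 25.3 RPKM in LL2 CAFs (0.50 ± 0.13). Adipocyte, skeletal muscle and Schwann cell markers had 1, 4 and 1 tested genes and 1 call, *Ckm*, at 2.7 and 2.81 RPKM against 0.267 and 0.0160 RPKM.

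Genes that mark a single tumor model were also found in the CAF libraries of that model. No gene met the rule set for such genes, which asked for under 0.5 CPM in all tumors of other models, so a second rule was chosen after the values were seen: at least 10 CPM in all 3 tumors of a model and at least 10 times the highest of the other 12 tumors. It gave 16 genes for EO771, among them *Esx1*, *Hand1*, *Gm364*, *Aqp3* and *Fam83a*, and 5 for LL2, namely *Dkk2*, *Adamtsl3*, *Adcyap1r1*, *Kcnh1* and *Nefl*. The 16 EO771 genes summed to 1134 and 1136 RPKM in EO771 CAFs, of which *Esx1* alone made 734 and 743 RPKM, to 7.26 and 6.33 RPKM in LL2 CAFs and 10.4 to 13.5 RPKM in MC38 and Pan02 CAFs. The 5 LL2 genes summed to 155 and 178 RPKM in LL2 CAFs, of which *Dkk2* alone made 133 and 156 RPKM. Their sum was 4.10 and 4.76 RPKM in EO771 CAFs and 1.47 to 5.50 RPKM in the other groups. All 16 were called higher in EO771 CAFs, and the 4 tested LL2 genes were called higher in LL2 CAFs. Relative to whole tumors of their own model, the median level of these genes as a share of the transcriptome was 62.8% (quartiles 54.7% and 75.9%) in EO771 CAFs and 91.3% (quartiles 44.5% and 118%) in LL2 CAFs. The CAF and tumor tables were quantified and scaled separately, so these shares are a description with no test. *Gapdh*, for example, stood at 1464 and 1466 RPKM in EO771 CAFs and 672 and 775 RPKM in LL2 CAFs but at 22.9 ± 3.52 CPM in EO771 tumors and 20.6 ± 8.0 CPM in LL2 tumors in the tumor table. The part that cells other than fibroblasts, cancer cells and myeloid cells among them, have in the differences below was not tested, and in sorted bulk RNA fewer cells of a type and less RNA per cell cannot be told apart.

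**Figure D1:**
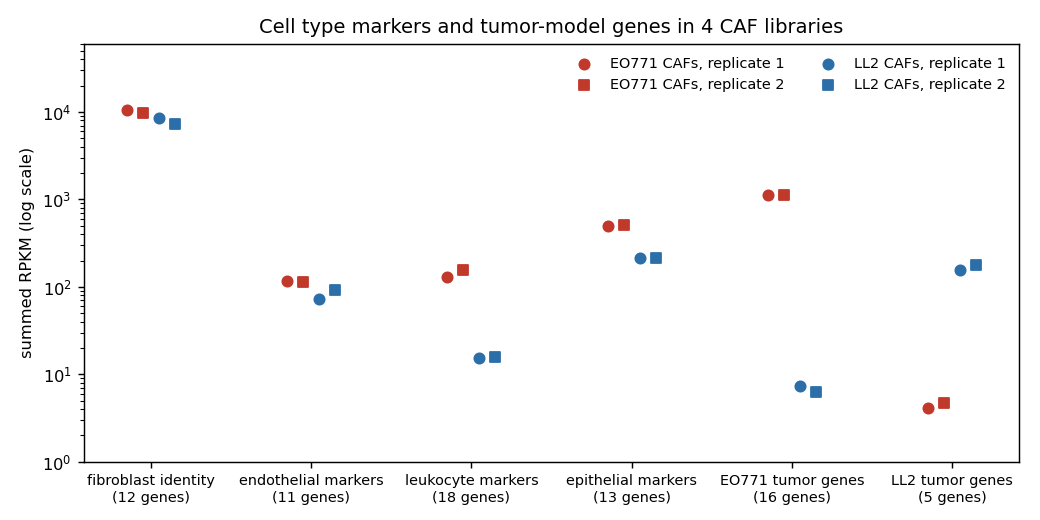
Summed RPKM (log scale) of 4 lists of cell type markers and of 2 sets of genes that mark a tumor model, one point per CAF library (circle replicate 1, square replicate 2; red EO771, blue LL2). The fibroblast sums lie between 7276 and 10456 RPKM in all 4 libraries, the leukocyte sums are 129 and 156 RPKM against 15.2 and 15.6 RPKM, and each set of tumor model genes is high only in the CAFs of its own model.

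Of the 12521 genes tested, 1938 (15.5%) were called, 1110 (8.87%) of them higher in EO771 CAFs and 828 (6.61%) higher in LL2 CAFs. The side of the larger differences was uneven: 248 EO771-higher genes and 103 LL2-higher genes reached 2 log2 units, and 74 and 18 reached 3. The median difference over all tested genes was -0.002, and rescaling by the median of ratios moved the groups against each other by 0.0014. The groups did not overlap for 82.6% of all tested genes, so in a design of this size the absence of overlap says little of a single gene.

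The 12 largest EO771-higher genes, among those with a mean of at least 10 RPKM in EO771 CAFs, ran from 4.96 to 7.35 log2 units. Coordinates are those of the files, build mm10. First was *Esx1* (NM_007957, chromosome X from 137115397 to 137120326), which encodes a homeobox factor known from the placenta, with 734 and 743 RPKM in EO771 CAFs and 3.33 and 3.77 RPKM in LL2 CAFs (7.35 ± 0.11, adjusted p = 5.95e-12). Both EO771 libraries stood far above both LL2 libraries, and MC38 and Pan02 CAFs had at most 1.59 RPKM. *Hand1* (NM_008213, chromosome 11 from 57828713 to 57832147), a helix-loop-helix factor of trophoblast and heart, measured 49.3 and 46.5 RPKM against 0.0230 and 0 RPKM and was listed at 0 in all 4 MC38 and Pan02 libraries. *Nppb*, the gene of B-type natriuretic peptide, had 88.6 and 90.4 RPKM against 0.629 and 0.227 RPKM (6.0 ± 0.14), and *Lgals7*, which encodes galectin-7, had 119 and 129 RPKM against 1.46 and 0.889 RPKM (5.86 ± 0.14). *Aqp3*, a water and glycerol channel of epithelia, had 65.9 and 55.3 RPKM against 0.365 and 0.0750 RPKM, the keratin gene *Krt17* had 48.2 and 44.5 RPKM against 0.200 and 0.0280 RPKM, and *Wfdc2*, a secreted protease inhibitor-like protein, had 204 and 230.5 RPKM against 3.68 and 6.95 RPKM. *Padi4*, which converts arginine to citrulline in proteins, had 42.6 and 43.96 RPKM against 0.0170 and 0.0830 RPKM, but MC38 and Pan02 CAFs also reached up to 27.5 RPKM. The other 4 were *4930550L24Rik* at 56.5 and 62.04 RPKM against 0.0280 and 0.0280 RPKM, *Fam83a* at 51.2 and 53.97 RPKM against 0.0740 and 0.0210 RPKM, *Vgf*, a neuropeptide precursor, at 59.8 and 59.6 RPKM against 0.936 and 0.927 RPKM, and the adhesion gene *Cadm4* at 81.1 and 74.9 RPKM against 1.34 and 1.75 RPKM. For all 12, both EO771 libraries lay above the other 6 CAF libraries, and *Esx1*, *Hand1*, *Aqp3*, *Fam83a* and *Vgf* are among the tumor model genes counted above. In whole tumors 11 of the 12 were also called higher in EO771, *Esx1* with 1604 ± 6.93 CPM in EO771 tumors and 7.73 ± 2.96 CPM in LL2 tumors, and *Krt17* was the exception (log2 difference 2.78, adjusted p = 0.0968 by edgeR). Its EO771 tumors, at 89.3, 55.0 and 61.4 CPM, still lay above its LL2 tumors, at 1.09, 0.0524 and 29.0 CPM.

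The 12 largest LL2-higher genes were smaller differences, from 3.39 to 5.62 log2 units in size. After *Krt18* came *Dkk2* (NM_020265, chromosome 3 from 132085292 to 132180304), a secreted modulator of Wnt signaling, with 133 and 156 RPKM in LL2 CAFs and 2.83 and 3.52 RPKM in EO771 CAFs (-5.13 ± 0.13, adjusted p = 1.37e-10), where MC38 and Pan02 CAFs had at most 2.66 RPKM. *H19* (NR_130973, chromosome 7 from 142575530 to 142578146), an imprinted long noncoding RNA, had 261 and 304 RPKM in LL2 CAFs and 7.66 and 9.52 RPKM in EO771 CAFs (-4.89 ± 0.13, adjusted p = 1.88e-10). *Mir675*, the microRNA hairpin that lies within *H19* and shares its reads, followed at -4.69 and is not a separate measurement. *Peg10*, which is imprinted as well, had 17.3 and 19.1 RPKM in LL2 CAFs and 0.369 and 0.626 RPKM in EO771 CAFs. *Slc38a4*, an imprinted amino acid transporter gene, had 11.9 and 12.8 RPKM in LL2 CAFs and 0.271 and 0.281 RPKM in EO771 CAFs. *Itgb7*, an integrin chain of lymphocytes, measured 55.9 and 62.7 RPKM in LL2 CAFs and 2.58 and 2.4 RPKM in EO771 CAFs, and *Il18rap*, a subunit of the interleukin-18 receptor, measured 18.8 and 21.2 RPKM in LL2 CAFs and 0.624 and 0.604 RPKM in EO771 CAFs. Both LL2 libraries lay above both EO771 libraries for each of these. *Ptn*, which encodes the heparin-binding growth factor pleiotrophin, had 74.6 and 84.2 RPKM in LL2 CAFs and 4.84 and 4.13 RPKM in EO771 CAFs, and *Enpp2*, which encodes the lysophosphatidic acid-producing enzyme autotaxin, had 44.4 and 46.6 RPKM in LL2 CAFs and 2.89 and 2.61 RPKM in EO771 CAFs. These 2 genes and *Krt18* were higher still in Pan02 CAFs, where *Enpp2* reached 611 and 514 RPKM and *Krt18* 349 and 483 RPKM, so that 9 of the 12 were highest in LL2 CAFs. *Tenm4* (-3.56) and *Alcam* (-3.4), both of cell adhesion, completed the 12. All 12 were called higher in LL2 tumors too.

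**Figure D2:**
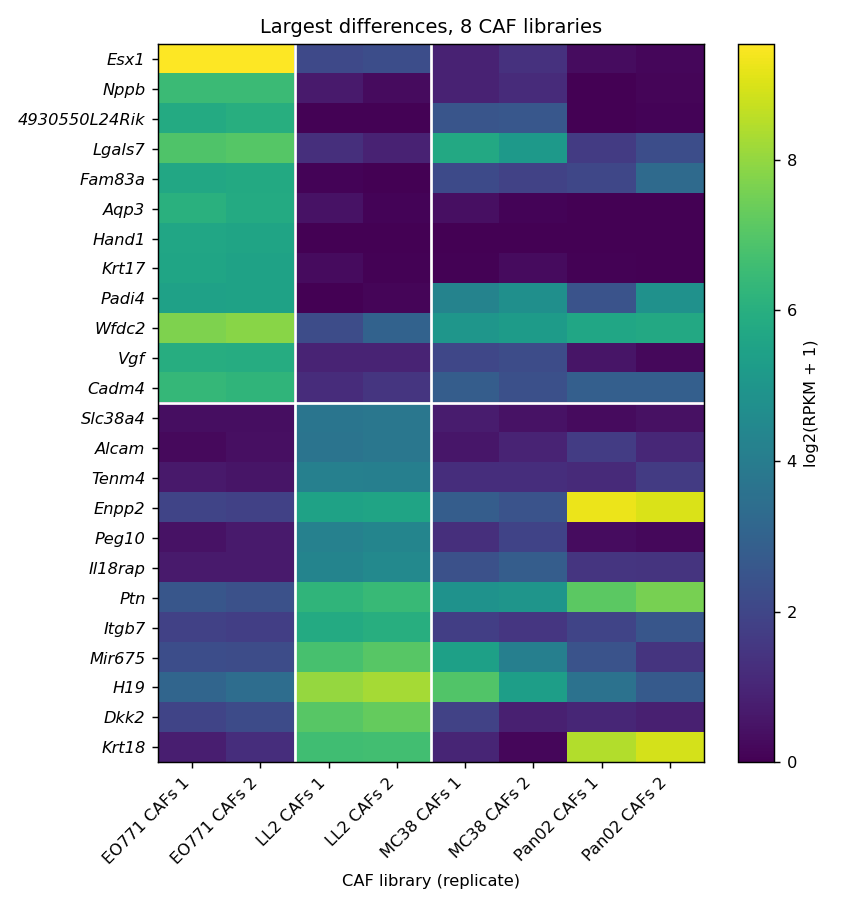
Heat map of log2(RPKM + 1) for the 24 named genes with the largest differences (rows, the 12 EO771-higher genes above the white horizontal line and the 12 LL2-higher genes below) in 8 CAF libraries (columns). The 12 upper genes are highest in the EO771 columns, with lower but visible levels of Lgals7 in MC38 and of Padi4, Wfdc2, Fam83a and Cadm4 in MC38 and Pan02, and Krt18, Enpp2 and Ptn are high in the Pan02 columns as well as in LL2.

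The called genes were also placed among all 4 CAF groups. Of the 1110 EO771-higher genes, 719 (64.8%) had both EO771 libraries above the 6 other CAF libraries, against 18.8% of all tested genes, and 275 (24.8%) had both LL2 libraries below the 6 others, against 7.45%. Of the 828 LL2-higher genes, 328 (39.6%) had both LL2 libraries above the 6 others, against 10.2% of all genes, and 442 (53.4%) had both EO771 libraries below the 6 others, against 16.8%. The choice of the called genes already fixes part of these shares, since a gene cannot be EO771-higher with its EO771 libraries at the bottom, a gene can count toward both shares of its direction, and no test was run on them.

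The MMPs went both ways. Of 23 MMP genes 14 were tested, 4 were called higher in EO771 CAFs and 2 higher in LL2 CAFs, with a median difference of -0.13. *Mmp10* (NM_019471, chromosome 9 from 7502342 to 7510242) measured 40.4 and 27.9 RPKM in EO771 CAFs and 2.85 and 3.69 RPKM in LL2 CAFs, and *Mmp12* (NM_008605, chromosome 9 from 7347374 to 7360461) measured 34.4 and 42.96 RPKM in LL2 CAFs and 4.87 and 5.03 RPKM in EO771 CAFs. Neither group overlapped the other for either gene, and the 2 genes were high in opposite groups. The difference was 3.03 ± 0.17 for *Mmp10* (adjusted p = 5.99e-08) and -2.73 ± 0.13 for *Mmp12* (adjusted p = 1.65e-08). In MC38 and Pan02 CAFs both genes were low, with at most 1.05 RPKM of *Mmp10* and at most 0.126 RPKM of *Mmp12*, so both groups stood above those models for both genes. *Mmp13*, the gene of collagenase-3 (NM_008607, chromosome 9 from 7272514 to 7283333), had 54.1 and 23.8 RPKM in EO771 CAFs and 1.61 and 1.54 RPKM in LL2 CAFs (3.84 ± 0.27, adjusted p = 3.96e-07). Its EO771 replicates differed by over 1 log2 unit from each other, though both exceeded the LL2 libraries. *Mmp9*, the gelatinase B gene, had 23.4 and 18.9 RPKM against 4.17 and 3.85 RPKM (2.14 ± 0.13), and *Mmp23* had 44.5 and 49.6 RPKM against 23.9 and 20.8 RPKM (1.04 ± 0.12), a call that was lost without EO771 replicate 2, without LL2 replicate 2 and with the spread of all 8 CAF libraries. *Mmp28*, which encodes epilysin, was higher in LL2 CAFs at 6.04 and 5.67 RPKM in LL2 CAFs and 1.15 and 0.963 RPKM in EO771 CAFs (-1.74 ± 0.12, adjusted p = 5.03e-07).

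The most abundant MMPs were shared by the groups. *Mmp14*, a membrane-bound MMP that activates proMMP-2, measured 339.7 and 313 RPKM in EO771 CAFs and 425 and 462 RPKM in LL2 CAFs (-0.44 ± 0.12, adjusted p = 0.00898), and *Mmp2*, gelatinase A, measured 256 and 245 RPKM in EO771 CAFs and 200.03 and 167 RPKM in LL2 CAFs (0.45 ± 0.13). *Mmp3*, stromelysin-1, came close to the limit of 1 log2 unit in favor of LL2 CAFs with 221 and 264 RPKM in LL2 CAFs and 111 and 134 RPKM in EO771 CAFs (-0.98 ± 0.14, adjusted p = 8.38e-05). *Mmp11* followed at -0.87, *Mmp19* at -0.42, *Mmp15* at -0.38, *Mmp24* at 0.12 and *Mmp27* at 0.35. The 9 MMP genes that were not tested, such as *Mmp7* and *Mmp8*, reached at most 1.34 RPKM in any of the 4 libraries. *Mmp2*, *Mmp3* and the smaller MMPs of this paragraph were not chosen by the naming rule, except *Mmp14*. A count test on recovered reads called 6 MMP genes higher in EO771 CAFs and 4 higher in LL2 CAFs.

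As shares of the transcriptome, *Mmp10* stood above its level in whole tumors in both models, by 1.11 log2 units in EO771 and 1.53 in LL2 CAFs. The other called MMPs varied on this scale. *Mmp13* stood at -0.70 in EO771 and -0.58 in LL2 CAFs, and *Mmp9* at 0.37 and -2.24. *Mmp23* stood at 3.22 in EO771 and 2.6 in LL2 CAFs, and *Mmp28* at -0.72 and 0.68. For *Mmp12* the models differed: LL2 CAFs stood 1.64 log2 units above LL2 tumors, whereas EO771 CAFs were at -3.15 log2 units relative to EO771 tumors. The myeloid genes *Lyz2* and *Laptm5* were at -3.0 and -3.34 in EO771 CAFs and at -8.52 and -7.57 in LL2 CAFs on the same scale. *Mmp12* is best known from macrophages, and the macrophage markers *Csf1r* and *Adgre1* had CAF differences of 1.86 and 1.7. The source of the *Mmp12* reads was not tested.

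**Figure D3:**
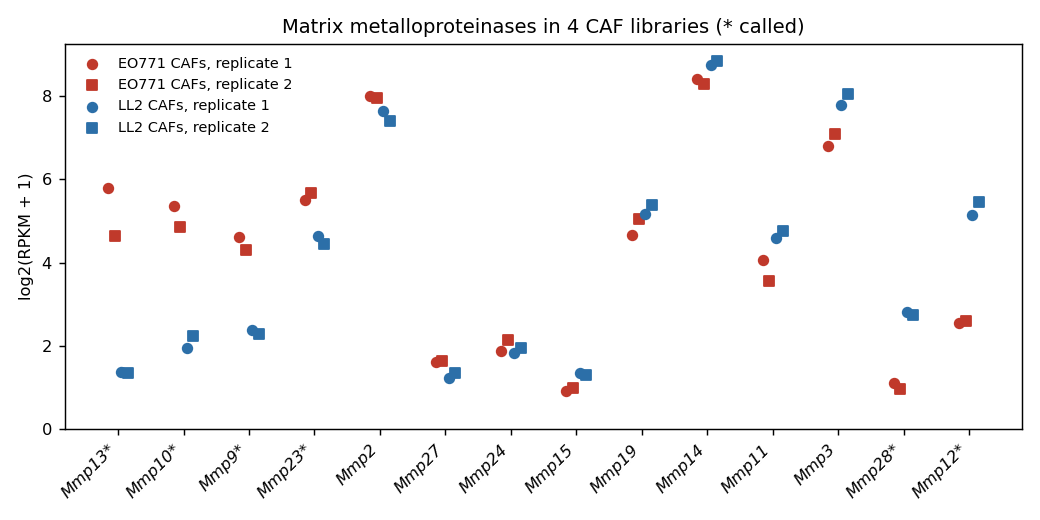
log2(RPKM + 1) of the 14 tested MMP genes in each of the 4 CAF libraries, ordered by the difference EO771 minus LL2 (red EO771, blue LL2; circle replicate 1, square replicate 2; an asterisk marks a called gene). Mmp13, Mmp10, Mmp9 and Mmp23 are higher in both EO771 libraries, Mmp28 and Mmp12 are higher in both LL2 libraries, and the abundant Mmp14 and Mmp2 differ by under 0.5 log2 units.

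*Mmp3*, *Mmp10*, *Mmp12* and *Mmp13* lie in one cluster of MMP genes on chromosome 9. Of the 3 of them whose counted transcript begins at the RefSeq start site, the windows from 250 bases before to 50 bases after the start are shown because *Mmp10* and *Mmp13* were EO771-higher and their neighbor *Mmp3* was not. Capitals mark matches to TGANTCA, the core that AP-1 factors bind, which reads the same on both strands. RefSeq sequences are of build GRCm38.p6 on the plus strand, at chr9:7502092-7502391 for *Mmp10*, chr9:7272264-7272563 for *Mmp13* and chr9:7445572-7445871 for *Mmp3*.
Mmp10: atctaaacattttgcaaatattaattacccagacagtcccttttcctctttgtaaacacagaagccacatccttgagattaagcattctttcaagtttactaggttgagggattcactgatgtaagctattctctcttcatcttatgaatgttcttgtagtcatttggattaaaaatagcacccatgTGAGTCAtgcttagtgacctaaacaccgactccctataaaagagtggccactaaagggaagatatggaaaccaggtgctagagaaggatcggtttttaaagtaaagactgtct
Mmp13: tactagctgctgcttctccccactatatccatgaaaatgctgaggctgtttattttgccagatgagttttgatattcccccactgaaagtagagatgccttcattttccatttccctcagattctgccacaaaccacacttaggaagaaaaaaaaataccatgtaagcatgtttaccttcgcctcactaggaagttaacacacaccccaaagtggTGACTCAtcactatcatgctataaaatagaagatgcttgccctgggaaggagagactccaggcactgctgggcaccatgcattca
Mmp3: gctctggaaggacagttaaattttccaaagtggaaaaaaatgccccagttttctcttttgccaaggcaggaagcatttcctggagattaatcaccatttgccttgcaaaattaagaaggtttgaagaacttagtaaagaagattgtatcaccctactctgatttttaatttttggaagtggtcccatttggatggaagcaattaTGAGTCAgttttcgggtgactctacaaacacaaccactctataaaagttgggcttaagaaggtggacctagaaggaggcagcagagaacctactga
The match began at base -63 in *Mmp10*, -35 in *Mmp13* and -46 in *Mmp3*, counted so that 0 is the start site. It was present in all 3 windows shown. Among the other called MMPs, the EO771-higher *Mmp23* and the LL2-higher *Mmp28* had windows with 0 matches. Among 18 MMP genes with a window, 7 (38.9%) held the motif, against 2144 of 27025 windows (7.93%) in the whole RefSeq table. Of the tested genes with a window, 475 of 9509 (5.00%) held it, and so did 79 of 813 (9.72%) EO771-higher and 31 of 581 (5.34%) LL2-higher genes. These are matches to letters and not measured binding, and no test was run on the shares. The window RefSeq gives for *Mmp12* lies 2977 bases before the start of the transcript counted here and is not shown.

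Of 10 tested genes of metalloproteinase inhibitors and the plasminogen system, 3 were called higher in EO771 CAFs and 1 in LL2 CAFs, and 6 were not called, with a median of 0.66. *Plaur*, the receptor that holds urokinase at the cell surface, measured 167 and 179.5 RPKM in EO771 CAFs and 42.5 and 38.9 RPKM in LL2 CAFs (2.06 ± 0.11, adjusted p = 5.52e-08), whereas urokinase itself, *Plau*, was higher in LL2 CAFs at 129.96 and 141 RPKM in LL2 CAFs and 66.3 and 66.01 RPKM in EO771 CAFs (-1.02 ± 0.11, adjusted p = 1.15e-05). All EO771 values of *Plaur* exceeded all LL2 values and those of *Plau* lay below them. The call of *Plau* was lost without LL2 replicate 2 and with all 8 CAF libraries. *Timp3*, a matrix-bound inhibitor of MMPs and ADAMs, measured 58.9 and 60.9 RPKM against 12.4 and 10.9 RPKM (2.27 ± 0.11, adjusted p = 2.58e-08), and *Timp1*, the most abundant uncalled member, measured 249 and 334 RPKM against 183 and 160.3 RPKM (0.75 ± 0.15, adjusted p = 0.00114).

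Among 22 tested ADAM and ADAMTS proteases, 3 (13.6%) were higher in EO771 CAFs and 2 (9.09%) in LL2 CAFs (median 0.38). These shares were near the 8.87% and 6.61% of all tested genes. *Adamts16* had 4.16 and 3.51 RPKM against 0.326 and 0.177 RPKM (1.95 ± 0.14), *Adam12* 13.7 and 10.9 RPKM against 5.8 and 3.77 RPKM (1.21 ± 0.17) and the procollagen N-proteinase gene *Adamts2* 77.2 and 67.1 RPKM against 38.3 and 31.3 RPKM (1.03 ± 0.13). *Adamts10* (-1.13 ± 0.13) and *Adamts14* (-1.07 ± 0.11), another procollagen N-proteinase, were higher in LL2 CAFs. *Adamts1* was the most abundant uncalled member (46.3 and 47.4 RPKM against 70.2 and 61.9 RPKM). Without LL2 replicate 2, only 1 of the 3 EO771-higher and 1 of the 2 LL2-higher proteases were called.

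Few collagen genes passed both criteria. Of 10 tested fibrillar collagens 9 had a difference above 0, with a median of 0.77, and 2 were called, *Col1a2* and *Col2a1*. *Col1a2*, the second chain of type I collagen, measured 2474 and 2229.9 RPKM in EO771 CAFs and 1161 and 872 RPKM in LL2 CAFs. *Col2a1*, the cartilage collagen, was low at 4.19 and 3.47 RPKM against 0.122 and 0.269 RPKM (2.01 ± 0.14, adjusted p = 3.76e-07). *Col3a1* was the one fibrillar collagen with a difference below 0, at 2826 and 2692 RPKM against 3799 and 3443 RPKM (-0.39 ± 0.16, adjusted p = 0.0498). The number of fibrillar collagens called depended on single libraries: it was 5 without LL2 replicate 1, 4 without EO771 replicate 2 and 1 with the spread of all 8 CAF libraries.

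Of 8 tested network and basement membrane collagens, 3 were called, all higher in EO771 CAFs, while the median was -0.08. *Col7a1*, the anchoring fibril collagen, measured 119 and 66.8 RPKM in EO771 CAFs and 21.2 and 23.9 RPKM in LL2 CAFs (1.94 ± 0.21, adjusted p = 1.08e-05), *Col8a1* measured 24.4 and 27.1 RPKM against 11.8 and 10.3 RPKM (1.15 ± 0.12) and *Col8a2* measured 2.56 and 3.3 RPKM against 0.352 and 0.132 RPKM (1.66 ± 0.15). *Col18a1*, from which endostatin is cut, was the most abundant uncalled member and stood the other way at -0.89 ± 0.11 (adjusted p = 4.43e-05). Of 10 tested FACIT, beaded and transmembrane collagens 9 were above 0, with a median of 0.57, and *Col12a1* alone was called at 142 and 93.9 RPKM in EO771 CAFs and 41.3 and 27.2 RPKM in LL2 CAFs (1.75 ± 0.20, adjusted p = 2.24e-05), whereas *Col6a1* had 0.45 ± 0.13. The call of *Col12a1* was 10.0% of its tested list, near the 8.87% of all tested genes that were EO771-higher. The count test on recovered reads called 6 members of this list higher in EO771 CAFs and 2 in LL2 CAFs, and 2 network collagens higher in LL2 CAFs. With the spread of all 8 CAF libraries, 1 of the 3 network collagens was called, and *Col12a1* was not.

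The enzymes that process collagen were divided, with 3 of 20 higher in each group. *Lox*, the lysyl oxidase that starts cross-links, measured 117 and 133 RPKM in EO771 CAFs and 60.1 and 46.3 RPKM in LL2 CAFs (1.23 ± 0.14, adjusted p = 1.62e-05). *Pcolce2*, an enhancer of procollagen C-proteinase, had 52.03 and 46.99 RPKM against 18.8 and 21.6 RPKM (1.25 ± 0.12), and *P4ha3*, a prolyl 4-hydroxylase subunit, had 43.7 and 44.6 RPKM against 18.4 and 20.1 RPKM (1.16 ± 0.11). Hydroxylases of the other side were *Plod2*, which hydroxylates telopeptide lysines, with 88.4 and 101 RPKM in LL2 CAFs and 20.4 and 24.3 RPKM in EO771 CAFs (-2.03 ± 0.12, adjusted p = 1.31e-07), the prolyl 3-hydroxylase gene *P3h2* with 5.5 and 4.79 RPKM in LL2 CAFs and 0.671 and 0.582 RPKM in EO771 CAFs (-1.92 ± 0.13) and *P4ha1* with 64.6 and 71.5 RPKM in LL2 CAFs and 28.9 and 34.9 RPKM in EO771 CAFs (-1.08 ± 0.12). Within each of these 6 genes the groups were separate, and *P4ha1* was not called without EO771 replicate 1. With the spread of all 8 CAF libraries *Lox* and *P4ha3* were not called, which left 1 enzyme higher in EO771 CAFs and 3 higher in LL2 CAFs. *Serpinh1*, the collagen chaperone HSP47, did not pass at 0.30 ± 0.13 (adjusted p = 0.0600).

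Among 51 tested matrix glycoproteins and proteoglycans, 14 (27.5%) were higher in EO771 CAFs and 6 (11.8%) in LL2 CAFs, with a median of 0.33. *Tnn*, which encodes tenascin-W, measured 47.6 and 29.2 RPKM in EO771 CAFs and 1.9 and 0.541 RPKM in LL2 CAFs (4.18 ± 0.27, adjusted p = 1.95e-07). *Thbs1*, the gene of thrombospondin-1, measured 161 and 145 RPKM in EO771 CAFs and 32.01 and 26.5 RPKM in LL2 CAFs (2.35 ± 0.12, adjusted p = 4.54e-08), *Fmod*, fibromodulin, 5.46 and 7.17 RPKM against 0.992 and 0.520 RPKM (2.06 ± 0.16) and *Thbs4* 23.4 and 28.8 RPKM against 7.98 and 4.67 RPKM (1.92 ± 0.19). On the LL2 side stood *Matn2*, matrilin-2, with 58.02 and 59.99 RPKM in LL2 CAFs and 13.3 and 12.7 RPKM in EO771 CAFs (-2.1 ± 0.11), *Lum*, *Vcan*, versican, with 57.4 and 62.8 RPKM in LL2 CAFs and 17.2 and 18.1 RPKM in EO771 CAFs (-1.71 ± 0.11), and *Fn1*, fibronectin, with 1031 and 1005 RPKM in LL2 CAFs and 438 and 339 RPKM in EO771 CAFs (-1.4 ± 0.15, adjusted p = 1.07e-05). Other EO771-higher members, outside the naming rule, included *Tnc* (1.59), *Postn* (1.36), *Bgn* (1.15) and *Sparc* (1.0), and *Lamb1* (-1.37) and *Spon2* (-1.16) were LL2-higher. With the spread of all 8 CAF libraries, 4 rather than 14 were called higher in EO771 CAFs.

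Contractile genes that were called were all higher in EO771 CAFs, 5 of 15 tested, with a median of 0.72. *Acta2*, smooth muscle actin, the classic marker of myofibroblasts, measured 157 and 159.6 RPKM in EO771 CAFs and 43.6 and 39.98 RPKM in LL2 CAFs (1.9 ± 0.11, adjusted p = 8.81e-08), and *Tagln*, the actin-binding protein SM22, measured 172 and 176 RPKM in EO771 CAFs and 23.9 and 20.6 RPKM in LL2 CAFs (2.91 ± 0.11, adjusted p = 4.46e-09). *Actg2* had 45.6 and 41.9 RPKM against 2.81 and 2.75 RPKM (3.56 ± 0.11), *Cnn1*, calponin-1, had 4.75 and 3.57 RPKM against 0.882 and 0.321 RPKM (1.7 ± 0.18), and *Myl9* was the fifth at 1.63. For each of the 4 with values the EO771 libraries lay above the LL2 libraries. The order with the other groups was less clear, since *Acta2* stood at 229 and 30.3 RPKM in MC38 CAFs and 119 and 89.1 RPKM in Pan02 CAFs. *Tpm1*, the most abundant uncalled member, had 0.35 ± 0.11 (adjusted p = 0.0201). With the spread of all 8 CAF libraries 3 of the 5 were called, *Acta2* not among them.

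Of 12 pericyte and vascular CAF genes 1 was called, the LL2-higher *Nr2f2*, which encodes the receptor COUP-TFII (13.01 and 14.7 RPKM in LL2 CAFs and 4.75 and 4.95 RPKM in EO771 CAFs; -1.34 ± 0.12). That call was 8.33% of the list, near the 6.61% of all tested genes that were LL2-higher. The median of the list was -0.41, and *Rgs5*, a pericyte marker, had -0.30 ± 0.14 (adjusted p = 0.0805).

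Genes of the TGF-beta, BMP and activin pathways were called higher in EO771 CAFs in 13 of 34 cases (38.2%) and higher in LL2 CAFs in 3 (8.82%), with a median of 0.34. Among ligands, *Bmp7* measured 41.05 and 42.1 RPKM in EO771 CAFs and 1.07 and 0.933 RPKM in LL2 CAFs (4.41 ± 0.11, adjusted p = 1.77e-10), *Gdf15*, a stress-induced ligand, measured 12.4 and 12.3 RPKM against 2.12 and 0.525 RPKM (2.61 ± 0.25), and *Tgfb1* (1.36), *Tgfb2* (1.74) and the activin chain *Inhba* (1.64) were EO771-higher as well. The antagonists *Grem1* (2.08) and *Fst* (1.61) and the pathway targets *Id1* (1.84), *Id2* (1.79) and *Smad7* (1.36) were called in the same direction. *Ctgf*, a matricellular target of TGF-beta and YAP, measured 139.8 and 151 RPKM in EO771 CAFs and 20.6 and 14.1 RPKM in LL2 CAFs (3.02 ± 0.15, adjusted p = 3.27e-08), with both EO771 libraries above both LL2 libraries. The latent TGF-beta binding proteins, which store the ligand in the matrix, were split: *Ltbp2* was higher in EO771 CAFs (20.7 and 19.8 RPKM against 3.82 and 3.38 RPKM; 2.21 ± 0.11) and *Ltbp1* and *Ltbp3* were higher in LL2 CAFs (-1.43 ± 0.12 and -1.08 ± 0.11). The co-receptor gene *Tgfbr3* was LL2-higher too at 43.3 and 43.6 RPKM in LL2 CAFs and 19 and 19.03 RPKM in EO771 CAFs (-1.15 ± 0.10), and *Fstl1* was the most abundant uncalled member at 0.38 ± 0.12. *Bmp7* was not confined to EO771 CAFs, as it measured 0.196 and 0.118 RPKM in MC38 CAFs and 29 and 39.9 RPKM in Pan02 CAFs.

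Wnt genes had one of the highest shares of calls. Of 28 tested, 14 (50%) were higher in EO771 CAFs and 2 (7.14%) higher in LL2 CAFs, with a median of 0.99. Of the ligands, *Wnt6* had 5.17 and 6.5 RPKM against 0.214 and 0.191 RPKM (2.5 ± 0.14, adjusted p = 6.31e-08), *Wnt5a* 11.6 and 8.21 RPKM against 1.53 and 1.52 RPKM (2.09 ± 0.15) and *Wnt10b* 13.2 and 12.3 RPKM against 2.27 and 2.23 RPKM (2.08 ± 0.12), and *Wnt7b* (1.91), *Wnt11* (1.49), *Wnt2b* (1.42), *Wnt5b* (1.31) and *Wnt10a* (1.14) were called the same way. The secreted antagonists were divided, with *Dkk3* (22.6 and 18.98 RPKM against 4.67 and 3.63 RPKM; 2.08 ± 0.14), *Sfrp1* (1.26), *Sfrp2* (1.12) and *Sfrp4* (1.05) higher in EO771 CAFs and *Dkk2* and *Frzb* (2.62 and 2.61 RPKM in LL2 CAFs and 0.646 and 0.677 RPKM in EO771 CAFs; -1.12 ± 0.13) higher in LL2 CAFs. *Tcf7* (1.84), a nuclear effector, and *Lgr5* (1.03), a receptor for R-spondins, completed the 14. The receptor gene *Fzd1* was the most abundant uncalled member at 0.41 ± 0.16 (adjusted p = 0.0384). Relative to whole EO771 tumors, the share of the transcriptome in EO771 CAFs was -0.66 log2 units for *Wnt6*, -0.57 for *Wnt10b*, 0.86 for *Wnt5a* and 1.88 for *Dkk3*. Of the TGF-beta, BMP and activin genes it was -0.70 for *Bmp7*, 0.35 for *Gdf15*, 2.75 for *Ctgf* and 2.73 for *Ltbp2*. *Esx1* of the tumor model genes stood at -0.37, and the fibroblast identity genes ran from 0.17 for *Twist2* to 3.63 for *Dcn*. The cells from which the reads of these pathway genes came were not tested.

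Growth factors went in both directions, 7 of 35 higher in EO771 CAFs and 8 higher in LL2 CAFs (median -0.01). *Pdgfa*, a ligand of PDGF receptor alpha, measured 105 and 119 RPKM in EO771 CAFs and 15.5 and 18.99 RPKM in LL2 CAFs (2.64 ± 0.12, adjusted p = 1.93e-08). The EGF family ligands *Nrg1* (4.75 and 3.88 RPKM against 0.306 and 0.335 RPKM; 2.003 ± 0.13) and *Hbegf* (60.7 and 53.9 RPKM against 23.6 and 13.7 RPKM; 1.62 ± 0.19) and the carrier protein gene *Igfbp2* (1.88 ± 0.17) were also higher in EO771 CAFs. *Igfbp4*, a carrier that limits IGF action, was among the most abundant transcripts of LL2 CAFs with 1738 and 1871 RPKM in LL2 CAFs and 309 and 391 RPKM in EO771 CAFs (-2.37 ± 0.15, adjusted p = 1.87e-07). *Bdnf*, a neurotrophin, measured 7.03 and 8.72 RPKM in LL2 CAFs and 0.223 and 0.343 RPKM in EO771 CAFs (-2.79 ± 0.14), *Igf2* 4.28 and 5.51 RPKM in LL2 CAFs and 0.189 and 0.146 RPKM in EO771 CAFs (-2.33 ± 0.14) and *Hgf*, the ligand of MET, 6.15 and 6.41 RPKM in LL2 CAFs and 1.18 and 0.970 RPKM in EO771 CAFs (-1.81 ± 0.12, adjusted p = 3.54e-07). The EO771 values of these 4 genes lay below both LL2 values. Of the 4, only *Igfbp4* was highest in LL2 CAFs. *Igf2* had 356 and 415 RPKM and *Bdnf* 18.2 and 15.7 RPKM in Pan02 CAFs, and *Hgf* had 7.60 and 7.56 RPKM in MC38 CAFs. *Fgf10* (-1.48), *Pdgfc* (-1.44), *Kitl* (-1.41) and *Vegfb* (-1.15) were the other LL2-higher members, and *Igfbp6* had 0.39 ± 0.16 (adjusted p = 0.0492).

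Hox genes, which record the position of a cell along the body axis, were called in 10 of 27 tested cases (37.0%), each time higher in LL2 CAFs, with a median of -0.74. By limma 0 were called higher in EO771 CAFs, where 7 had an unadjusted p under 0.05 against 17 on the LL2 side. In cluster A, 6 of 9 were LL2-higher (median -1.72), in cluster B 2 of 7 (median -0.88) and in cluster D 2 of 5 (median -0.65), whereas all 6 tested genes of cluster C were above 0 (median 0.57). *Hoxa5* measured 8.42 and 10.7 RPKM in LL2 CAFs and 1.2 and 0.866 RPKM in EO771 CAFs (-2.38 ± 0.14, adjusted p = 1.42e-07), *Hoxa7* 6.43 and 7.33 RPKM in LL2 CAFs and 0.917 and 0.910 RPKM in EO771 CAFs (-2.04 ± 0.13), *Hoxa6* 4.21 and 4.01 RPKM in LL2 CAFs and 0.416 and 0.403 RPKM in EO771 CAFs (-1.86 ± 0.13) and *Hoxa11* 2.93 and 3.39 RPKM in LL2 CAFs and 0.127 and 0.240 RPKM in EO771 CAFs (-1.81 ± 0.13). Both LL2 libraries exceeded both EO771 libraries in each, but none of these 4 genes was highest in LL2 CAFs. In Pan02 CAFs *Hoxa5* had 35.6 and 29.3 RPKM and *Hoxa6* 8.46 and 9.97 RPKM. In MC38 CAFs *Hoxa7* had 13.4 and 17.5 RPKM and *Hoxa11* 3.88 and 3.69 RPKM. In the other of these models none of them lay above both LL2 libraries. *Hoxd8*, the most abundant uncalled Hox gene, measured 12.6 and 12.8 RPKM against 11.3 and 14.9 RPKM (-0.03 ± 0.13, adjusted p = 0.868), with overlapping groups. The levels are low: with a minimum of 5 RPKM only 3 of the 10 were tested and called, while a count test on recovered reads called 16 higher in LL2 CAFs and 3 higher in EO771 CAFs, and a pseudocount of 0.1 gave 15 and 2.

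Inflammatory cytokines and chemokines were called higher in EO771 CAFs in 12 of 28 cases (42.9%) and higher in LL2 CAFs in 1, with a median of 0.75. *Tnf* measured 6.23 and 5.82 RPKM against 0.207 and 0.0550 RPKM (2.64 ± 0.13, adjusted p = 3.07e-08), and the macrophage chemokine gene *Ccl4* measured 4.57 and 5.14 RPKM against 0.135 and 0 RPKM (2.46 ± 0.13). *Ccl3*, of the same family, measured 4.06 and 3.24 RPKM against 0 and 0.0280 RPKM (2.19 ± 0.14). *Cxcl13*, which attracts B cells, measured 20.6 and 23.4 RPKM in EO771 CAFs and 3.02 and 3.5 RPKM in LL2 CAFs (2.43 ± 0.12, adjusted p = 3.01e-08). Both EO771 libraries were above both LL2 libraries for these 4 genes. *Ccl2*, which recruits monocytes, was the exception at 319 and 277 RPKM in LL2 CAFs and 124 and 159 RPKM in EO771 CAFs (-1.07 ± 0.14, adjusted p = 5.85e-05), and was not called without EO771 replicate 1 or without LL2 replicate 1. *Cxcl1*, a neutrophil chemokine and the most abundant uncalled member, had overlapping groups (169 and 230.2 RPKM against 260.4 and 131 RPKM; 0.10 ± 0.25, adjusted p = 0.752). Further EO771-higher members, outside the naming rule, were *Ccl12* (2.15), *Ccl9* (1.97), *Ccl8* (1.8), *Cxcl2* (1.76), *Il1b* (1.73), *Cxcl16* (1.68), *Il6* (1.49) and *Cxcl3* (1.08). The leukocyte markers were higher in EO771 CAFs as well, at 129 and 156 RPKM summed against 15.2 and 15.6 RPKM, and their part in these cytokine differences was not tested. With a minimum of 5 RPKM, 7 of the 12 were tested and called.

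Of 24 tested inflammatory effectors of fibroblasts, 5 were higher in EO771 CAFs and 1 in LL2 CAFs (median 0.44). *Has1*, a hyaluronan synthase, measured 36.2 and 56.2 RPKM in EO771 CAFs and 12.5 and 12.8 RPKM in LL2 CAFs (1.76 ± 0.17, adjusted p = 4.71e-06), *Tnfaip6*, which modifies hyaluronan, 69.1 and 95.95 RPKM against 26.2 and 24.2 RPKM (1.66 ± 0.15), *Hp*, haptoglobin, 14.3 and 16.9 RPKM against 3.5 and 4.45 RPKM (1.74 ± 0.13), and the interleukin-1 antagonist gene *Il1rn* 2.27 and 3.16 RPKM against 0 and 0.0180 RPKM (1.87 ± 0.15). The part of leukocytes in these differences was not tested either. The interleukin-1 receptor *Il1r1* was LL2-higher (45.02 and 47.8 RPKM in LL2 CAFs and 21.99 and 22.8 RPKM in EO771 CAFs; -1.02 ± 0.11), a call that was lost without EO771 replicate 1 and without LL2 replicate 2. Complement *C3* was abundant in both at 286 and 282 RPKM against 245 and 212 RPKM (0.32 ± 0.12, adjusted p = 0.0399).

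Interferon response genes gave 6 calls of 30 (20.0%), all higher in EO771 CAFs, with a median of 0.44. *Oasl1* measured 6.44 and 7.97 RPKM against 1.85 and 1.7 RPKM (1.56 ± 0.13), the ubiquitin-like modifier gene *Isg15* 35.5 and 38.6 RPKM against 9.34 and 15.9 RPKM (1.52 ± 0.18, adjusted p = 3.04e-05), the factor *Irf7* 25.5 and 26.9 RPKM against 10.7 and 11.8 RPKM (1.15 ± 0.11) and *Oas1a* 6.33 and 6.69 RPKM against 2.25 and 2.66 RPKM (1.12 ± 0.12). *Irf1* was the most abundant uncalled member (53.2 and 61.02 RPKM against 83.3 and 61.2 RPKM; -0.32 ± 0.15, adjusted p = 0.0740). These 4 called genes were higher in MC38 CAFs than in either group, with *Isg15* at 492 and 331 RPKM in MC38 CAFs and 26.05 and 19.8 RPKM in Pan02 CAFs.

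Antigen presentation genes were higher in EO771 CAFs in 9 of 16 tested cases (56.2%), every call by limma and by edgeR on recovered reads being in this direction, with a median of 1.33. The MHC class II genes led: *Cd74*, the invariant chain, measured 51.2 and 69.1 RPKM in EO771 CAFs and 1.27 and 1.06 RPKM in LL2 CAFs (4.8 ± 0.14, adjusted p = 6.08e-10), *H2-Aa* 17.9 and 24.9 RPKM against 0.582 and 0.412 RPKM (3.89 ± 0.15), *H2-Eb1* 16.2 and 22.9 RPKM against 0.426 and 0.527 RPKM (3.78 ± 0.15) and the peptide exchange factor gene *H2-DMb1* 9.83 and 12.03 RPKM against 1.56 and 1.48 RPKM (2.24 ± 0.13). Class II genes were thus at or below 1.56 RPKM in LL2 CAFs for these 4 and between 9.83 and 69.1 RPKM in EO771 CAFs. *Ciita*, the master regulator of class II transcription, was at most 0.112 RPKM in any of the 4 libraries. On the class I side, the immunoproteasome genes *Psmb8* (1.66) and *Psmb9* (1.41) and the transporter *Tap1* (1.25) were called, while *B2m* measured 698 and 812 RPKM against 437 and 456 RPKM (0.75 ± 0.13, adjusted p = 4.94e-04). Leukocyte markers were higher in EO771 CAFs as well, summing to 15.2 and 15.6 RPKM in LL2 CAFs and 129 and 156 RPKM in EO771 CAFs. Relative to whole EO771 tumors, *Cd74* in EO771 CAFs stood at -3.42 log2 units as a share of the transcriptome, *H2-Aa* at -3.58, *H2-Eb1* at -3.42 and *H2-DMb1* at -1.64. The leukocyte genes *Laptm5*, *Fcer1g*, *Lyz2* and *Tyrobp* stood at -3.34, -3.06, -3.0 and -2.89 in the same comparison, and *Cd14* at -1.23. The source of the class II reads was not tested. *Cd74* was higher still in Pan02 CAFs, where it measured 556 and 246 RPKM, against 2.71 and 2.31 RPKM in MC38 CAFs.

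Cell cycle genes gave 6 calls of 32 (18.8%), all higher in EO771 CAFs, with a median of 0.43. *Ccne1*, cyclin E1, measured 27.9 and 32.9 RPKM against 7.62 and 7.91 RPKM (1.84 ± 0.12, adjusted p = 2.05e-07), the ribonucleotide reductase subunit *Rrm2* 55.9 and 59.5 RPKM against 23.1 and 26.2 RPKM (1.2 ± 0.11) and survivin, *Birc5*, 53.9 and 65.9 RPKM against 25.2 and 29.96 RPKM (1.09 ± 0.13), which was not called without EO771 replicate 2 or without LL2 replicate 1. Inhibitors of the cycle were among the calls: *Cdkn2b* measured 4.86 and 3.79 RPKM against 1.32 and 0.867 RPKM (1.35 ± 0.15), and *Cdkn2a* (1.05) and *Cdkn1a* (1.01) were the others. *Pcna*, the replication clamp, measured 83.7 and 92.8 RPKM against 87.8 and 99.8 RPKM (-0.09 ± 0.12, adjusted p = 0.537), and the groups overlapped. Without LL2 replicate 1 the count was 3. Of 24 glycolysis and hypoxia genes 3 (12.5%) were called higher in EO771 CAFs, near the 8.87% of all tested genes, with a median of 0.19. By limma 0 were called higher in LL2 CAFs, and edgeR on recovered reads called 1. The lactate exporter *Slc16a3* measured 209 and 235 RPKM in EO771 CAFs and 35.1 and 33.8 RPKM in LL2 CAFs (2.65 ± 0.11, adjusted p = 8.24e-09). *Pfkp* (1.02 ± 0.11) and *Gapdh* (1.02 ± 0.14) lay at the limit of 1 log2 unit. The latter 2 calls were lost without LL2 replicate 1. *Pkm*, the most abundant uncalled member, measured 946 and 958 RPKM against 953 and 1047 RPKM (-0.07 ± 0.14, adjusted p = 0.672).

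**Figure D4:**
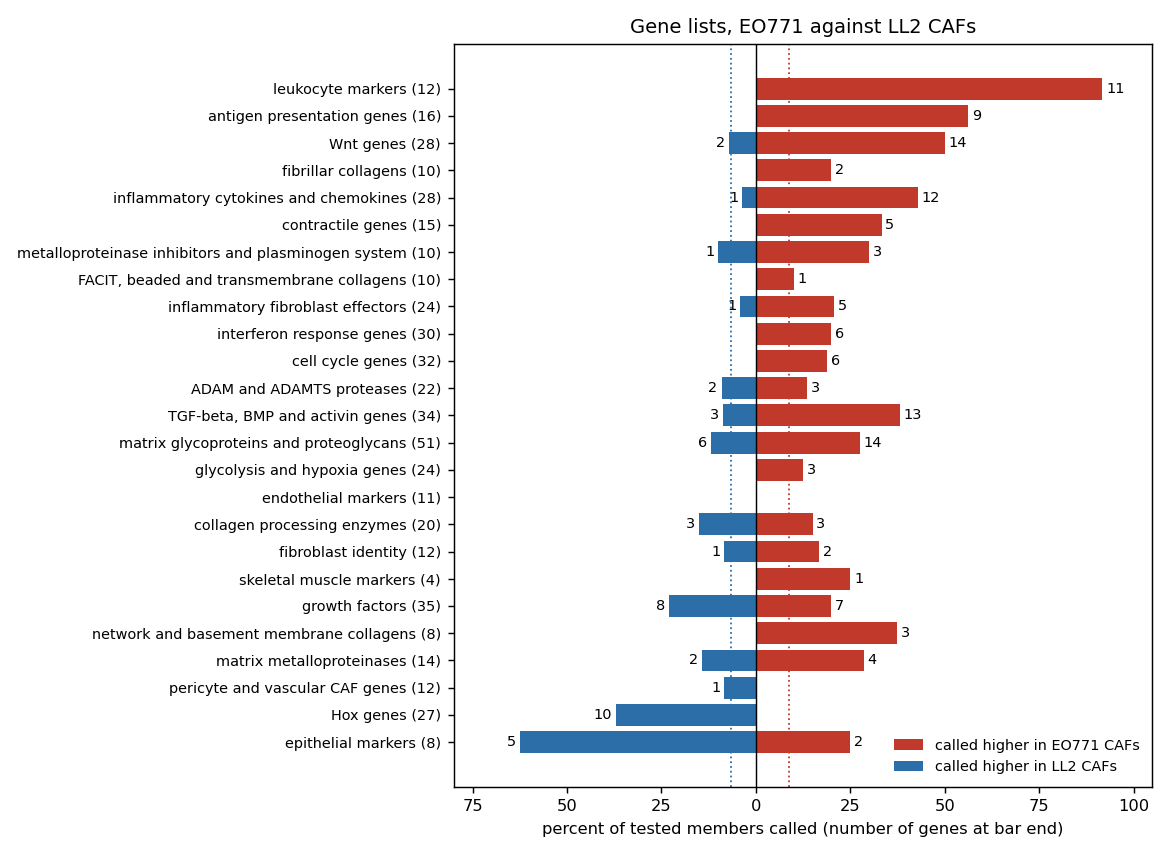
Percent of the tested members of each gene list (number tested in brackets, lists with at least 4 tested genes) called higher in EO771 CAFs (red, right) or higher in LL2 CAFs (blue, left), with the number of genes at the end of each bar, ordered by the median difference, and dotted lines at the shares over all tested genes, 8.87% and 6.61%. Leukocyte markers (11 of 12), antigen presentation genes (9 of 16) and Wnt genes (14 of 28) extend furthest to the EO771 side, and epithelial markers (5 of 8) and Hox genes (10 of 27) furthest to the LL2 side.

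The same contrast in whole tumors asked whether a CAF difference was also seen in unsorted tissue. There 3162 of 14231 genes (22.2%) were called by edgeR, 1449 (10.2%) higher in EO771 tumors and 1713 (12%) higher in LL2 tumors. Of the 1084 EO771-higher CAF genes tested in both, 604 (55.7%) were called higher in EO771 tumors, 35 (3.23%) higher in LL2 tumors and 445 (41.1%) not called, where the shares over all 12172 genes tested in both were 8.90%, 11.2% and 79.9%. Of the 769 LL2-higher CAF genes, 584 (75.9%) were called higher in LL2 tumors, 184 (23.9%) were not called and 1 (0.13%) was called higher in EO771 tumors. That gene was *Mmp12*. Its tumor values were 202, 186 and 159 CPM in EO771 tumors and 105, 22.9 and 26.1 CPM in LL2 tumors (log2 difference 1.83, adjusted p = 0.0268), and its 3 EO771 tumors all lay above its 3 LL2 tumors, the reverse of the CAFs. *Mmp10* and *Mmp13* kept their side, at 16.04, 34.7 and 34.1 CPM in EO771 tumors and 3.89, 0.577 and 0.851 CPM in LL2 tumors for *Mmp10* (4.03, adjusted p = 0.00200) and 4.51 for *Mmp13* (adjusted p = 1.46e-05). *Mmp3*, just under the limit in CAFs, was called higher in LL2 tumors (-2.43, adjusted p = 0.0220).

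Lists differed in how their CAF direction was met in tumors. For Wnt genes, tumors had 13 of 29 higher in EO771 and 5 higher in LL2, and for Hox genes 4 and 16 of 29, the side of the CAFs in both. Among contractile genes, 4 of 16 were higher in EO771 tumors and 1 in LL2 tumors, with *Tagln* at 2.56 (adjusted p = 1.60e-05) and *Acta2* at 0.87, under 1 log2 unit. *Plaur* (1.43), *Timp3* (1.51) and *Tnn* (3.68) were EO771-higher in tumors too. Inflammatory genes went the other way in tumors. Of 30 cytokine and chemokine genes tested in tumors, 1 was higher in EO771 and 15 in LL2 tumors (median -1.12), and of 26 inflammatory effectors the 14 that were called were higher in LL2 tumors (median -1.51). *Cxcl13* stood at -2.55 (adjusted p = 0.0257) and *Has1* at -3.42 (adjusted p = 0.0273). Both were low in tumors, and their groups overlapped. *Cxcl13* had 0.317, 0.085 and 0.872 CPM in EO771 tumors and 0.751, 3.62 and 2.92 CPM in LL2 tumors. *Has1* had 0.158, 0.425 and 1.39 CPM in EO771 tumors and 1.16, 14.4 and 4.2 CPM in LL2 tumors. Of 17 antigen presentation genes the tumors gave 1 call, on the LL2 side, with *Cd74* at 955 ± 165 CPM in EO771 tumors and 874 ± 849 CPM in LL2 tumors (0.13, adjusted p = 0.885), and the leukocyte markers gave 1 higher in EO771 and 5 higher in LL2 tumors of 17. So neither the class II genes nor most leukocyte markers were called higher in unsorted EO771 tumors.

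Other genes called in CAFs had no called counterpart in tumors. *Mmp9* (-0.52, adjusted p = 0.325), *Mmp23* (0.27), *Ltbp2* (0.04), *Lox* (-0.02), *P4ha3* (0.12), *Thbs4* (0.68), *Col2a1* (0.13), *Col8a2* (0.98), *Nrg1* (0.77) and *Igfbp2* (-0.08) were EO771-higher in CAFs, and *Mmp28* (-0.95), *Hgf* (-0.52), *Ltbp3* (-0.44) and *Frzb* (-1.1) were LL2-higher. The CAF calls of *Mmp23*, *Lox*, *P4ha3*, *Thbs4* and *Col8a2* were themselves lost with the spread of all 8 CAF libraries. A tumor difference that was not called does not show that the tumors were alike, and the difference between the CAF and the tumor contrast was not tested for any gene or list.

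**Figure D5:**
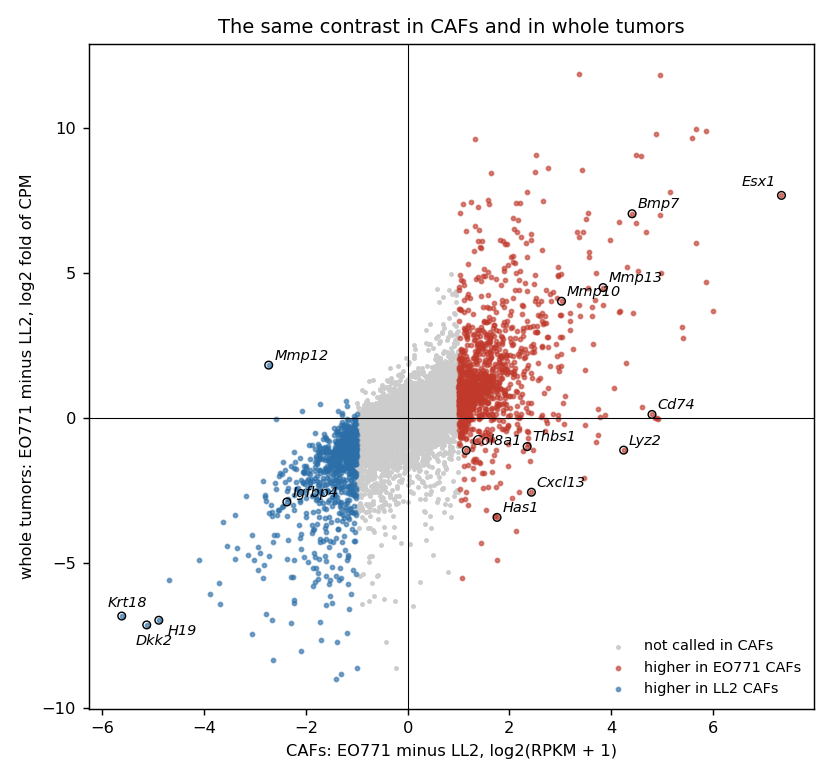
Difference EO771 minus LL2 in whole tumors (vertical axis, log2 fold of CPM from edgeR) against the same difference in CAFs (horizontal axis, log2(RPKM + 1)) for the 12172 genes tested in both, with genes called in CAFs in red and blue. Most called genes lie in the upper right and lower left, Mmp12, at -2.73 and 1.83, stands apart on the upper left, and Has1, Cxcl13, Lyz2 and Thbs1 lie on the lower right.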

How the data were processed

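RNA from FAP+ CAFs and from whole tumors was sequenced from poly(A) libraries without strand information. Per the labels' processing notes the authors aligned reads to mm10 with STAR 2.5.0c and quantified them with HOMER, and the notes also name DESeq2. The CAF table was deposited as RPKM scaled by the authors to each library. The tumor table was deposited in units of expected counts with steps of 0.5 read, with no scaling in the values despite its name, and these were rounded to whole numbers. Both tables had 40458 rows, of which 2 (0.0049%) named no gene and were left out, and 5 columns of other samples were not used. Each symbol was represented by its row with the largest mean, so reads shared by overlapping or near-identical genes could not be separated.

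CAFs were compared with limma 3.58.1 in R 4.3.3 (trend, Benjamini-Hochberg) on log2(RPKM + 1) over the 4 libraries, with 2 residual degrees of freedom per gene, and whole tumors with the quasi-likelihood test of edgeR 4.0.16 over 6 libraries. In all 4 libraries the tested values fell on steps of 0.5 read (100.0%, within 0.005 read beyond rounding). edgeR on the recovered reads called 3596 of 14548 genes. Replicate libraries differed by more than counting noise, with chi-square over degrees of freedom of 7.71 in EO771 and 16.4 in LL2 CAFs. On simulated data with 200 changed genes, limma recovered 200 of 200 with 0 false calls among 12521 genes at the CAF design, and edgeR 200 of 200 with 2 false calls among 14070 genes at the tumor design. All planted differences exceeded 1 log2 unit, the other genes had none, and the spread was that seen between replicates. These settings make such an outcome likely, so the simulation checks the code and does not measure errors in the real data. For CAF levels relative to tumors both tables were converted to TPM over all symbols. Promoter windows came from RefSeq (GRCm38.p6). Python 3.11.15, pandas 2.3.3, numpy 2.4.6 and matplotlib 3.10.9 were used.

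Genes were named by rule: *Mmp10* and *Mmp12*, the 12 largest called differences each way with a mean of at least 10 RPKM in the higher group, up to 4 called genes each way and the most abundant uncalled gene of each of 27 lists, every called MMP and collagen, and the fibroblast identity genes. Genes given by a difference alone, apart from fibroblast identity genes, *Tenm4*, *Alcam* and *Mir675*, and some markers of other cell types (*Ptprc*, *Cd3e*, *Cldn3*) lie outside it and were added after their values were seen. Some genes that the rule takes are not reported here. Comparison, lists and named genes were chosen with earlier results of these data known. Alternatives tried were no filter, a minimum of 5 RPKM, a pseudocount of 0.1, median-of-ratios scaling, all 8 CAF libraries, a replicate block, the sum of rows per symbol, recovered reads, no fold minimum and leaving out each library, and for tumors DESeq2 1.42.0, total-count scaling, no filter, all 15 tumors, a replicate block and leaving out each tumor.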

Additional observations from a re-analysis of the deposited data

Results flagged for a closer look

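For 10 named genes every CAF library and every tumor lay on opposite sides, with both EO771 CAF libraries on one side of both LL2 CAF libraries and the 3 EO771 tumors on the other side of the 3 LL2 tumors. Of these, 5 were called in both CAFs and tumors, with differences EO771 minus LL2 of -2.73 in CAFs and 1.83 in tumors for *Mmp12*, 2.19 and -2.54 for *Ccl3*, 2.46 and -1.10 for *Ccl4*, 4.25 and -1.10 for *Lyz2*, and 1.15 and -1.11 for *Col8a1*. The other 5 missed the call in CAFs, in tumors or in both, with 2.35 and -0.98 for *Thbs1*, 0.76 and -1.71 for *Cd14*, 0.38 and -0.51 for *Fstl1*, 0.35 and -0.39 for *Tpm1*, and -0.30 and 0.91 for *Rgs5*. The difference between the CAF and the tumor contrast was not tested, since the tables are in different units. Over all genes tested in both, 36 were called in opposite directions, 35 of them higher in EO771 CAFs and in LL2 tumors. *Mmp12* was the 1 gene called the other way.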

How the results depend on the processing

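The counts of called genes stayed within 1.5 times their value under most alternatives. The exceptions were a pseudocount of 0.1, which called 1267 genes higher in LL2 CAFs, edgeR on recovered reads, which called 3596 CAF genes (1913 higher in EO771, 1683 higher in LL2), and no fold minimum, which gave 7858 CAF genes (4025 and 3833) and 7422 tumor genes (3660 and 3762). The cause of the higher counts with recovered reads was not tested beyond the larger number of genes that passed its filter, 14548. Leaving out each library in turn gave 1879 to 2055 called CAF genes, 1070 to 1161 higher in EO771 and 718 to 955 higher in LL2, and 2908 to 3524 called tumor genes, 1405 to 1597 higher in EO771 and 1494 to 1930 higher in LL2. A library left alone in its group was then assumed to vary like the other group.

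Groups share replicate numbers. The deviations of same-numbered libraries correlated at 0.13 in CAFs, over 2 numbers only, and at -0.079, -0.187 and 0.038 in tumors. Whether equal numbers pair the CAF samples was left undecided. With the replicate number as a block, 1938 CAF genes were called (1110 and 828), and 3102 tumor genes (1459 and 1643), and the block changed no call of a named gene in CAFs. With 2 libraries a group this block can alter the spread of a CAF difference but not its size. The unchanged CAF calls therefore do not bear on pairing.

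Of 157 named genes 124 were called, and 101 of these kept their call and direction under every CAF alternative in which they were tested. The spread of all 8 CAF libraries removed 16 calls, those of *Acta2*, *Adam12*, *Adamts2*, *Cldn4*, *Mmp23*, *Plau*, *Col1a2*, *Fbln2*, *Col12a1*, *Col8a1*, *Col8a2*, *Fmod*, *Hp*, *Lox*, *P4ha3* and *Thbs4*, and leaving out LL2 replicate 1 would have called *Col1a1* and *Dcn*. Directions reversed for 4 named genes, none of them called. Leaving out each library in turn, the difference ran from -0.40 to 0.59 for *Cxcl1*, from -0.21 to 0.33 for *Fabp4*, from -0.18 to 0.005 for *Pcna* and from -0.21 to 0.16 for *Hoxd8*. With 2 libraries a group, of unstated independence, and no sorted cells other than FAP+ cells, neither animal variation nor the share of other cells could be measured.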
